A study of Homo sapiens with 18 samples.

Results

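Cytochalasin D stops actin filaments from growing and so blocks cytokinesis, which leaves a cell that has passed through mitosis with a doubled genome. RPE1 cells, an immortalised line of human retinal pigment epithelium, were exposed to this drug and sorted by DNA content into a 4N and a 2N fraction, and messenger RNA of both fractions was sequenced. The comparison described here is 4N against 2N cells under cytochalasin D, in the 3 biological replicates of each fraction that the labels number 1 to 3. These 6 libraries were taken from a series of 18, in which the other 12 are 4N and 2N fractions of cells given the Aurora kinase inhibitor ZM447439 and of untreated cells. Tests covered 13037 of the 57773 listed genes, those whose level over the 18 libraries averaged 0.5 RPKM or more.

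All cells were grown in medium with 10% fetal bovine serum and stained with 2 µg/mL of the DNA dye Hoechst for 60 minutes before sorting. The labels give every library, also the untreated ones, the same treatment text of 2.5 µM ZM447439 for 24 hours, and no dose or time for cytochalasin D. A DNA content of 4N is found both in tetraploid cells in G1 and in diploid cells in G2 or mitosis. In sorted bulk RNA, a smaller share of cells that express a gene and less RNA per cell cannot be told apart. The study used 1 cell line, and each fraction is a gate on DNA content, not a cell state.

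Cells prepare for mitosis by switching on a large set of genes in G2, among them the kinase CDK1, its cyclins, and the motors and checkpoint proteins of the spindle. Many of these genes are held silent outside G2 by the DREAM complex, which binds CHR elements in their promoters, often beside CCAAT boxes bound by NF-Y. Cells that become tetraploid after failed cytokinesis are known to activate p53 and the LATS kinases, and LATS keeps the coactivators YAP and TAZ away from the TEAD factors on genes such as CCN1 and CCN2. YAP and TAZ also depend on tension in actin filaments, which was not measured here.

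The deposited values are RPKM, reads scaled to gene length and library size, and their length unit was the whole stretch a gene covers in the genome, with its introns, so a gene with long introns has a low RPKM. RPM, reads scaled to library size alone, were obtained by multiplying back by that stretch (the span). Depth read from the steps between low values was 52459984 to 61872724 reads in the 4N libraries and 62608755 to 67298987 reads in the 2N libraries. The libraries numbered 1 stood apart from the others of their fraction: the SD of their log2 distance from the other 2 was 0.292 in both fractions, against 0.186 to 0.203 for numbers 2 and 3. Many listed markers of pigment epithelium were at or near 0 RPKM, with RPE65 at 0.00637 ± 0.00646 RPKM in 4N and 0.0133 ± 0.00949 RPKM in 2N cells, while the transcription factor OTX2 was at 3.98 ± 0.197 RPKM in 4N and 3.55 ± 0.0955 RPKM in 2N cells (SD, n = 3 each). RDH5, KRT8, SIX3 and KRT18 were expressed too, at means of 5.87, 5.07, 28.3 and 44.3 RPKM in 4N cells. MITF, with a long span, averaged 0.150 RPKM but 34.4 RPM in 4N cells, against 42.1 RPM for OTX2. BEST1 cannot be read as a marker here, since its span overlaps that of the ferritin gene FTH1 and the libraries do not keep strand. The spans of ANGPTL4, CCND1, CCNE2, CEMIP, EGR3, FEN1, HMGCS1, IER2, JUNB, LIG1 and MDM2 also overlap genes on the other strand, so part of their reads is uncertain.

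No gene passed an adjusted p of 0.05 between 4N and 2N cells when the 6 libraries were treated as unpaired: 0 of 13037 genes, or 0%, in limma with Benjamini-Hochberg adjustment. At an unadjusted p under 0.05, 402 genes were higher in 4N cells (3.08% of those tested) and 280 lower (2.15%). The same-number libraries deviated from their group means together, with correlations of 0.63, 0.33 and 0.40, so they were also tested as pairs. Numbers 2 and 3 also went together crosswise, at 0.39 and 0.31, so their correlations do not show which of these libraries are partners. The paired test on RPKM called 3 genes (0.023%), each at an adjusted p of 0.0498, among them PCNA, higher, and CCDC80, lower in 4N cells. It called none on the 6 libraries alone, nor without both libraries numbered 1, 2 or 3. The paired test on RPM, which changes the scale and takes in genes that long introns put under the RPKM filter, called 129 of 17974 genes (0.718%), 36 higher (0.2%) and 93 lower (0.517%) in 4N cells. The unpaired test on RPM called 0 of the 17974, so these calls depend on the pairing. Of the 129, 88 had been tested on RPKM and 41 lay under its filter. Every one of the 129 had the same sign in all 3 pairs, and 50 of them did not overlap between the fractions (all genes tested on RPM, 10.9%). The paired test picks genes whose pairs agree, so neither count adds support to its calls. Changes of 2-fold or more were seen in 7 of the higher and 1 of the lower ones.

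From here, a gene is said to have risen or fallen in 4N cells where it passed this paired test on RPM, and its log2 difference is 4N minus 2N on the log2(RPM + 0.5) scale unless RPKM is named. That test rested on pairs 2 and 3: it called 114 genes without both libraries numbered 1, of which 80 were among the 129, but 1 gene, FAM111B, without both numbered 2, and again FAM111B alone without both numbered 3. Without the 6 libraries that stood apart (numbered 1 under either drug and 3 in untreated cells), the unpaired test on RPKM called 476 genes higher (3.65%) and 465 lower (3.57%) in 4N cells. These libraries were picked for their spread in these same data, so the rise in calls adds no support. With only both cytochalasin D libraries numbered 1 left out, that test called 0 genes. Sets of 3 values run over the libraries numbered 1, 2 and 3.

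**Figure D1:**
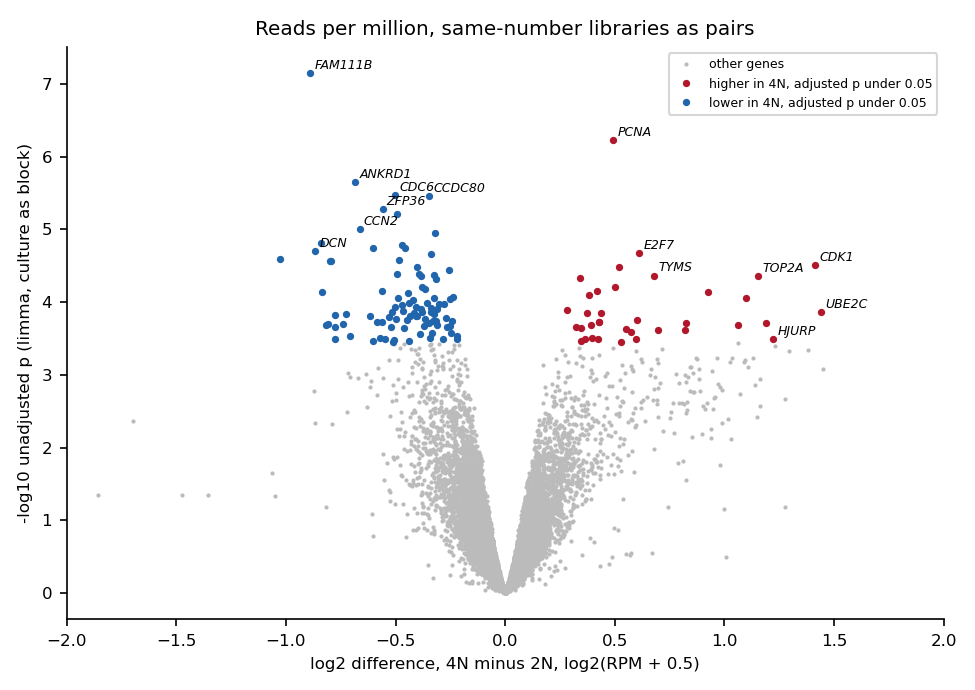
Each point is 1 of 17974 genes, with the log2 difference (4N minus 2N, log2(RPM + 0.5)) on the x axis and the -log10 unadjusted p of the paired limma test on the y axis. Of the 36 genes that rose, 7 changed by 2-fold or more, against 1 of the 93 that fell, and 2 genes lie beyond the x axis.

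Of the lists examined, the mitotic ones had the highest median differences between 4N and 2N cells. Over 3 lists that hold 94 genes of mitotic kinases and cyclins, of spindle and cytokinesis, and of kinetochore, cohesin, condensin and APC function, 80 were tested on RPKM, and 75 of them were higher in 4N cells in all 3 pairs, against 16.4% of all genes. In 60 of the 80, all 4N libraries lay above all 2N libraries, against 5.61% of all genes. Their median log2 difference on RPKM was 0.38, against -0.01 over all genes, with medians of 0.23, 0.45 and 0.49 in pairs 1, 2 and 3, and it was 0.79 over the members tested on RPM. In the paired test on RPM, 8 of the 94 rose (all genes, 0.2%) and none fell: UBE2C, CDK1, HJURP, TOP2A, NUSAP1, NCAPH, AURKB and CDCA5. Without the 6 libraries that stood apart, the unpaired test on RPKM called 72 of the 80 higher (all genes, 3.65%) and 1 lower (all genes, 3.57%). With only both cytochalasin D libraries numbered 1 left out, the median was the same, 0.46, and 0 of the 80 passed. The 72 calls thus add no support.

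UBE2C, the ubiquitin-conjugating enzyme of the APC, stood at 3.19, 2.80 and 2.98 RPKM in the 4N libraries, against 1.76, 0.789 and 0.763 RPKM in the 2N libraries. The fractions did not overlap, and 2N library 1 was the highest of its fraction. The log2 difference on RPM was 1.44 ± 0.26 (SE), adjusted p = 0.0382. CDK1, the kinase that drives entry into mitosis, stood at 22.0, 12.7 and 14.2 RPM in the 4N libraries, against 12.1, 3.96 and 3.61 RPM in the 2N libraries. Its lowest 4N library lay just above 2N library 1, and its log2 difference was 1.41 ± 0.21 (SE), adjusted p = 0.0261.

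TOP2A, the topoisomerase that untangles replicated chromosomes, stood at 104, 96.6 and 91.5 RPM in the 4N libraries, against 64.4, 36.1 and 35.4 RPM in the 2N libraries. All 4N libraries were higher than all 2N libraries, by a log2 difference of 1.15 ± 0.18 (SE), adjusted p = 0.0266. AURKB, the kinase of the chromosomal passenger complex, stood at 8.61, 8.09 and 8.26 RPM in the 4N libraries, against 6.33, 3.40 and 4.19 RPM in the 2N libraries. The 4N libraries lay within a narrow range and above the 2N libraries, with a log2 difference of 0.82 ± 0.16 (SE), adjusted p = 0.0409. HJURP, the chaperone that loads the centromeric histone CENPA, rose by 1.22, the spindle protein NUSAP1 by 1.10, the condensin subunit NCAPH by 0.93 and the cohesin protector CDCA5 by 0.55.

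Other mitotic genes had differences of similar size but did not pass. CDC20, the activator of the APC, stood at 6.02, 6.99 and 6.44 RPKM in the 4N libraries, against 4.02, 2.41 and 2.32 RPKM in the 2N libraries. PLK1, the polo kinase, stood at 2.07, 2.10 and 2.16 RPKM in the 4N libraries, against 1.31, 0.672 and 0.685 RPKM in the 2N libraries, and the proliferation antigen MKI67 at 2.62, 2.82 and 2.20 RPKM in the 4N libraries, against 1.89, 0.982 and 0.892 RPKM in the 2N libraries. In all 3 genes the fractions did not overlap, and the adjusted p of the paired test on RPM was 0.122 for CDC20, 0.112 for PLK1 and 0.0646 for MKI67. CCNB1, the mitotic cyclin B1, averaged 2.00 ± 0.0782 RPKM in 4N and 1.05 ± 0.341 RPKM in 2N cells, and AURKA, the centrosomal Aurora kinase, 0.670 ± 0.118 RPKM in 4N and 0.370 ± 0.177 RPKM in 2N cells (SD, n = 3 each), with adjusted p of 0.18 and 0.17 in the paired test on RPM.

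The promoters of 2 mitotic genes that rose show the elements described above. Both run from 5′ to 3′ on the gene's own strand in RefSeq's GRCh38.p14, TOP2A at chr17:40417847-40418146 on the minus strand and CDK1 at chr10:60778081-60778380 on the plus strand. Capitals mark the CHR letters TTTGAA and the CCAAT box CCAAT on either strand, so that matches on the other strand read TTCAAA and ATTGG.
TOP2A: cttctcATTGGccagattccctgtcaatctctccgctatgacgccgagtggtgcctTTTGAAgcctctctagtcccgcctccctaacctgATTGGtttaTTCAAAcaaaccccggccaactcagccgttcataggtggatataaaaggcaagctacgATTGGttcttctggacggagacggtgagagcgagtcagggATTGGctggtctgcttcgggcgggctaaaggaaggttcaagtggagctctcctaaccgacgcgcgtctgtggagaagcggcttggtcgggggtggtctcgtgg
CDK1: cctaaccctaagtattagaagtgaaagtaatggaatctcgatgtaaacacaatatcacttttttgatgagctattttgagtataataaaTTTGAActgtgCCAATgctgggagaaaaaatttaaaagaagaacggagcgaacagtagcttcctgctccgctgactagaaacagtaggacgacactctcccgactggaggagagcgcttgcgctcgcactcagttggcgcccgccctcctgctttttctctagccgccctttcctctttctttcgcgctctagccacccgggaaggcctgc

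TTTGAA was present in 50 of the 78 mitotic genes with a promoter in the table, 64.1%, against 15.4% of all 27305 promoters of the same length. CCAAT was present in 70.5% of the mitotic promoters, against 35.7% of all. Matches of the 2 motifs can overlap, as a pair of them does in the MKI67 promoter. A match of letters does not show binding, and no binding was measured.

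**Figure D2:**
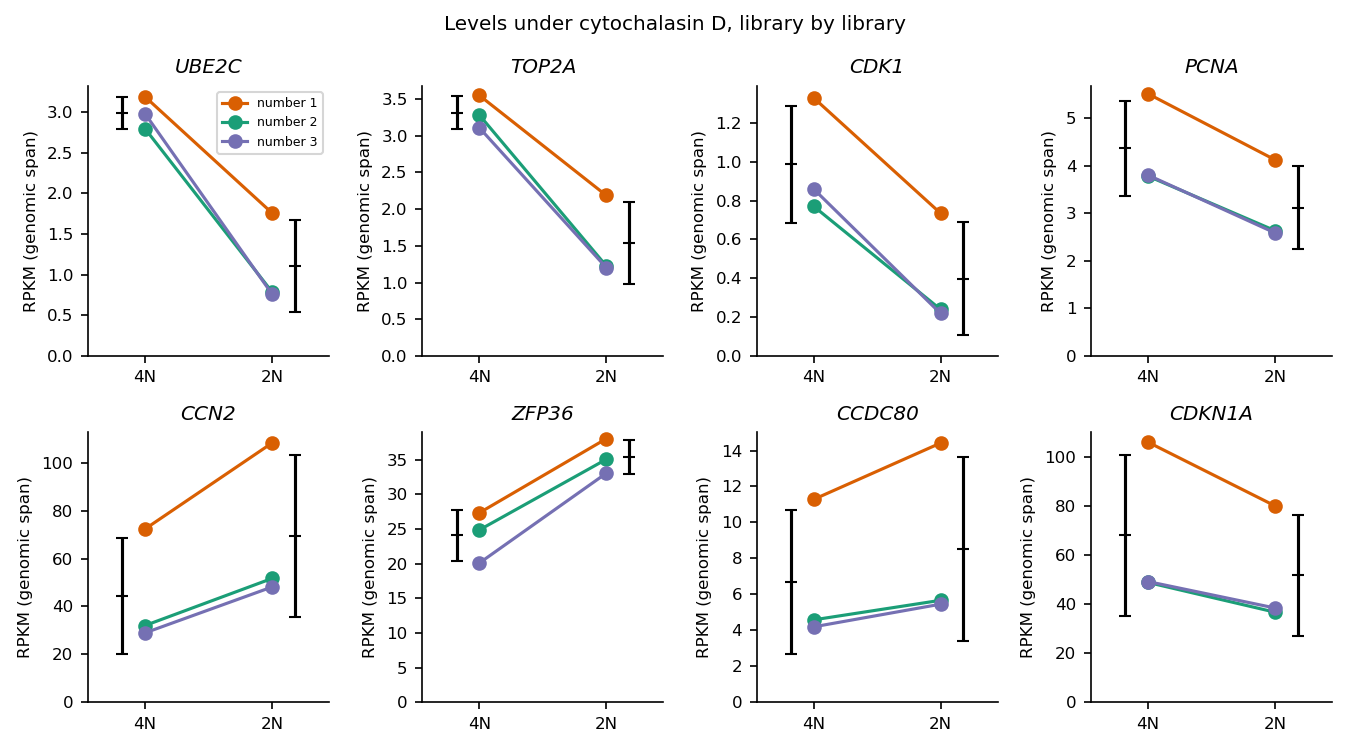
Levels of 8 genes in RPKM (y axes, starting at 0), with the 4N libraries left of the 2N libraries and lines joining libraries of the same number; black bars are means ± SD (n = 3). UBE2C, TOP2A, CDK1 and ZFP36 do not overlap between the fractions, while PCNA, CCN2, CCDC80 and CDKN1A move the same way in each pair around a high pair 1.

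The difference between 4N and 2N cells in mitotic genes was smaller under cytochalasin D than in untreated cells. The median log2 difference of the 80 tested genes on RPKM was 0.38 under cytochalasin D, 0.70 under ZM447439 and 1.20 in untreated cells. Of the 80, 51 had a lower difference under cytochalasin D than in untreated cells by the interaction test of the unpaired fit, and none a higher one. On RPM the unpaired test called 22 of the 94 lower (all genes, 6.68%) and the paired test 48 (all genes, 15%), while neither called a member higher (all genes, 2.66% and 7.07%). Medians on RPM were log2 differences of 0.79 under cytochalasin D, 1.00 under ZM447439 and 1.42 in untreated cells. Adding 0.5 draws the log2 differences of genes with low RPKM towards 0, and mitotic genes such as TOP2A had lower RPKM under the drug. Part of the gap between treatments on RPKM can thus be one of scale, and the gap was smaller on RPM. On RPKM over all genes, 1023 (7.85%) passed the unpaired test, 788 (6.04%) with a lower and 235 (1.8%) with a higher difference. TOP2A was at 3.31 ± 0.222 RPKM in 4N and 1.54 ± 0.561 RPKM in 2N cells under cytochalasin D, and at 42.7 ± 3.99 RPKM in 4N and 7.70 ± 1.21 RPKM in 2N untreated cells (SD, n = 3 each). Its difference was lower by an interaction of -1.47 ± 0.26 (SE), adjusted p = 0.00294, on log2(RPKM + 0.5).

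For UBE2C the interaction was -1.81 ± 0.39 (SE), adjusted p = 0.0101, and for CDK1 it was -1.60 ± 0.35 (SE), adjusted p = 0.0116. UBE2C averaged 2.99 ± 0.197 RPKM in 4N and 1.10 ± 0.569 RPKM in 2N cells under cytochalasin D, against 47.4 ± 0.938 RPKM in 4N and 5.80 ± 2.05 RPKM in 2N untreated cells. Both fractions under the drug thus lay below both untreated fractions for UBE2C and TOP2A, a difference between treatments that was not tested. No interaction passed between cytochalasin D and ZM447439, 0 of 13037 genes (0%) in the unpaired limma test, with 753 (5.78%) at an unadjusted p under 0.05 and 11 (0.0612%) in the paired test on RPM. The mitotic lists held none of these 11. Among them were the smooth muscle actin gene ACTA2, whose difference was less negative under cytochalasin D by 1.10, and the cytokine gene IL1B, whose difference was more negative by 0.74, both named after their values were seen.

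**Figure D3:**
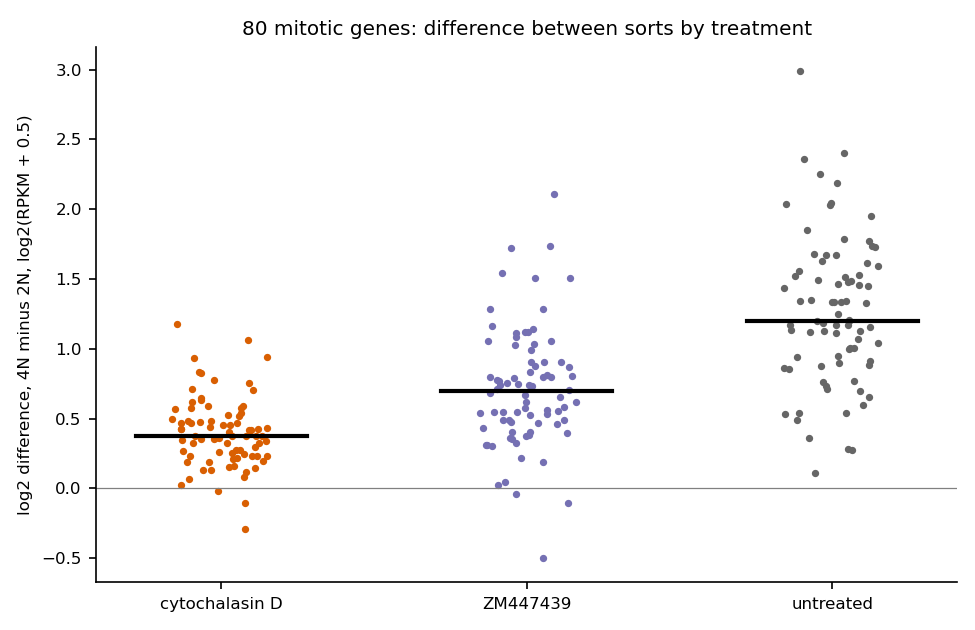
Each point is 1 of the 80 tested mitotic genes, with its log2 difference (4N minus 2N, log2(RPKM + 0.5)) on the y axis and the treatment on the x axis; black lines are medians. The median is 0.38 under cytochalasin D, 0.70 under ZM447439 and 1.20 in untreated cells. Adding 0.5 draws differences at low RPKM towards 0, and on RPM the medians are 0.79, 1.00 and 1.42.

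Genes of G1/S and DNA replication did not move together. Of 55 listed, 36 were tested on RPKM, with a median log2 difference of 0.00, 11 higher in all pairs and 9 lower in all pairs (all genes, 16.4% and 21%). In the paired test on RPM, 4 of 54 rose (PCNA, LIG1, TYMS and E2F8) and 4 fell (MCM10, CDC6, FEN1 and FAM111B), against 0.2% and 0.517% of all genes.

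PCNA, the sliding clamp of DNA polymerases, stood at 64.3, 44.1 and 44.4 RPM in the 4N libraries, against 48.1, 30.7 and 30.2 RPM in the 2N libraries. It was higher in 4N cells in each pair, while 2N library 1 lay above 4N libraries 2 and 3, so the fractions overlapped. The log2 difference was 0.49 ± 0.05 (SE), adjusted p = 0.00534, the second lowest adjusted p of the 129. In untreated cells PCNA had a log2 difference of -0.32 on RPKM, and the interaction was 0.75 ± 0.26 (SE), adjusted p = 0.107 in the unpaired fit and passed at an adjusted p of 4.66e-05 in the paired fit on RPM.

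TYMS, thymidylate synthase, stood at 41.7, 34.6 and 35.2 RPM in the 4N libraries, against 28.3, 21.2 and 20.1 RPM in the 2N libraries, with no overlap between the fractions and a log2 difference of 0.68 ± 0.11 (SE), adjusted p = 0.0266. ENOSF1, whose span overlaps that of TYMS on the other strand, rose by 0.43, and reads of the pair cannot be told apart without strand. LIG1, which joins Okazaki fragments, stood at 23.6, 18.3 and 18.1 RPM in the 4N libraries, against 17.8, 13.4 and 13.4 RPM in the 2N libraries and rose by 0.42. The repressors E2F7, kept on the list of G1 cyclins and inhibitors, and E2F8 close the S phase programme and rose by 0.61 and 0.53. CSRP3-AS1, whose span overlaps that of E2F8 on the other strand, rose by 0.58 with nearly the same RPM in each library, and reads of the pair cannot be told apart.

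FAM111B, a protease gene of S phase, stood at 1.92, 0.915 and 0.786 RPM in the 4N libraries, against 3.47, 2.14 and 2.17 RPM in the 2N libraries. Every 4N library was lower than every 2N library, and its log2 difference of -0.89 ± 0.07 (SE), adjusted p = 0.00128 had the lowest adjusted p of the comparison. CDC6, which loads the replicative helicase at origins, stood at 4.27, 3.31 and 2.94 RPM in the 4N libraries, against 6.14, 4.59 and 4.75 RPM in the 2N libraries. The fractions did not overlap, and the log2 difference was -0.50 ± 0.06 (SE), adjusted p = 0.0127. MCM10, a factor that fires origins, fell by a log2 difference of -0.47, and FEN1, the flap nuclease of lagging strand synthesis, of -0.24. The value of FEN1 is uncertain, since its span overlaps that of the more abundant FADS2. CCNE2 and E2F1, which drive entry into S phase, did not pass: CCNE2 averaged 0.188 ± 0.00595 RPKM in 4N and 0.224 ± 0.00283 RPKM in 2N cells, and E2F1 0.358 ± 0.0170 RPKM in 4N and 0.419 ± 0.0532 RPKM in 2N cells (SD, n = 3 each), with adjusted p of 0.509 and 0.413 in the paired test on RPM. In untreated cells the log2 differences of CCNE2 and E2F1 on RPKM were -1.41 and -0.81, and the interactions passed, at 1.34 ± 0.11 (SE), adjusted p = 1.03e-05 for CCNE2 and 0.71 ± 0.10 (SE), adjusted p = 0.000874 for E2F1.

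**Figure D4:**
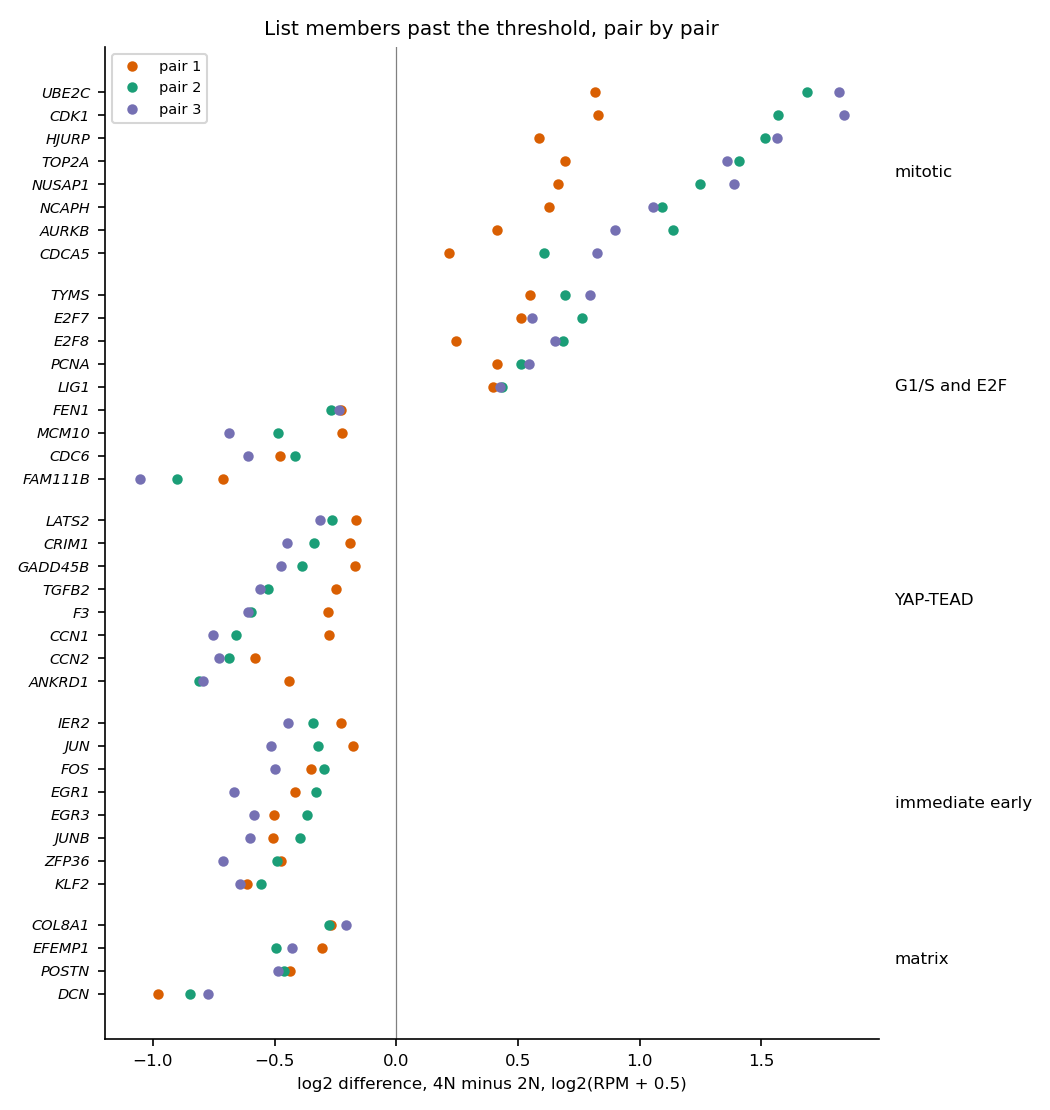
Points are the log2 differences (x axis, 4N minus 2N, log2(RPM + 0.5)) in pairs 1, 2 and 3 of 37 list members past the threshold, by list. All 3 points of a gene lie on the same side of 0, which the choice of genes by the paired test favours. Those of pair 1 lie nearer to 0 than the others in all mitotic and YAP-TEAD members shown.

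p53 targets were higher in 4N cells in most pairs, but by less than the unpaired spread. Of 43 listed, 31 were tested on RPKM; 23 were higher in all 3 pairs (all genes, 16.4%), 3 lay wholly above the 2N libraries (all genes, 5.61%), and the median log2 difference was 0.18, with 0.24, 0.14 and 0.17 in pairs 1, 2 and 3. Leaving out 1 library at a time took the median to 0.04 without 4N library 1 and to 0.31 without 2N library 1. CDKN1A, the p21 inhibitor of cyclin-dependent kinases, stood at 106, 49.0 and 49.4 RPKM in the 4N libraries, against 80.3, 36.8 and 38.6 RPKM in the 2N libraries. Each 4N library was higher than its partner, but library 1 of either fraction exceeded all libraries numbered 2 and 3. Its log2 difference on RPKM was 0.39 ± 0.54 (SE), adjusted p = 0.996, and 0.25 was its adjusted p in the paired test on RPM.

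MDM2, the ligase that degrades p53, averaged 4.14 ± 1.31 RPKM in 4N and 3.13 ± 0.949 RPKM in 2N cells. FDXR, a mitochondrial reductase, stood at 5.50, 3.23 and 2.93 RPKM in the 4N libraries, against 3.35, 1.80 and 1.90 RPKM in the 2N libraries, with an adjusted p of 0.0544 in the paired test on RPM. In the paired test on RPM, 1 of 43 members rose (all genes, 0.2%) and 1 fell (all genes, 0.517%). XPC, the damage sensor of nucleotide excision repair, stood at 88.1, 61.0 and 61.1 RPM in the 4N libraries, against 64.3, 48.9 and 46.7 RPM in the 2N libraries and was the member that rose, by 0.38 ± 0.06 (SE), adjusted p = 0.0348. Its antisense neighbour XPC-AS1 rose as well, by 0.36, and reads of the 2 cannot be told apart without strand. The list's median was 0.04 in untreated cells and 0.39 under ZM447439.

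Targets of YAP and TEAD were lower in 4N cells. Of 28 listed, 20 were tested on RPKM; 14 were lower in all 3 pairs (all genes, 21%) and 1 higher, with a median log2 difference of -0.18 and medians of -0.13, -0.17 and -0.20 in the 3 pairs. The median was -0.06 without 2N library 1 alone. On RPM, 8 of the 28 fell (all genes, 0.517%) and none rose (all genes, 0.2%): ANKRD1, CCN2, CCN1, F3, TGFB2, GADD45B, CRIM1 and LATS2. In the unpaired interaction test on RPKM, no member's difference was shown to differ from that in untreated cells. In the paired test on RPM, 9 of the 28 had a lower difference under cytochalasin D than in untreated cells (all genes, 15%) and 1 a higher one (all genes, 7.07%). Among the 9 were CRIM1 with an interaction of -0.66, LATS2 with -0.48 and GADD45B with -0.30, while CCN1, CCN2 and ANKRD1 did not pass.

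CCN2, a matricellular protein and a standard readout of YAP, stood at 231, 103 and 92.8 RPM in the 4N libraries, against 346, 165 and 154 RPM in the 2N libraries. Library 1 was higher than the others in both fractions, so the fractions overlapped, while each 4N library was below its partner. The log2 difference was -0.66 ± 0.09 (SE), adjusted p = 0.0222. CCN1, its relative, stood at 364, 162 and 150.1 RPM in the 4N libraries, against 441, 256 and 253 RPM in the 2N libraries, with a log2 difference of -0.56 ± 0.09 (SE), adjusted p = 0.0337. ANKRD1, a nuclear ankyrin repeat protein, stood at 123, 57.9 and 50.7 RPM in the 4N libraries, against 167, 102 and 88.3 RPM in the 2N libraries and fell by a log2 difference of -0.68 ± 0.08 (SE), adjusted p = 0.0127.

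F3, tissue factor, had a log2 difference of -0.49, the growth factor TGFB2 of -0.45, GADD45B of -0.34, the transmembrane protein CRIM1 of -0.32 and LATS2, a kinase that inhibits YAP and is itself a YAP target, of -0.25. In untreated cells the log2 differences on RPKM were -0.71 for CCN1, -0.78 for CCN2 and -0.87 for ANKRD1, against -0.56, -0.66 and -0.65 on the same scale under cytochalasin D. SDC4, CITED2 and RHOB, which are on no YAP list here and were named after their values were seen, fell by log2 differences of -0.25, -0.36 and -0.32.

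The promoters of CCN2 and ANKRD1 hold the TEAD letters GGAATG, in capitals. They run from 5′ to 3′ on the genes' own strand in RefSeq's GRCh38.p14, CCN2 at chr6:131951323-131951622 and ANKRD1 at chr10:90921038-90921337, both on the minus strand. GGAATG, searched on both strands, was found in 9 of 23 promoters of the list, 39.1%, against 14% of all 27305.
CCN2: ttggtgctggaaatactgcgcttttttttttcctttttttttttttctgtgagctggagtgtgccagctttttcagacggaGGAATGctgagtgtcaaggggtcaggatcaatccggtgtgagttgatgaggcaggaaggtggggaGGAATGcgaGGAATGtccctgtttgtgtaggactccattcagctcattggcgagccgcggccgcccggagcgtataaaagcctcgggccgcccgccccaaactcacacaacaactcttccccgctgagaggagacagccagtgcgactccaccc
ANKRD1: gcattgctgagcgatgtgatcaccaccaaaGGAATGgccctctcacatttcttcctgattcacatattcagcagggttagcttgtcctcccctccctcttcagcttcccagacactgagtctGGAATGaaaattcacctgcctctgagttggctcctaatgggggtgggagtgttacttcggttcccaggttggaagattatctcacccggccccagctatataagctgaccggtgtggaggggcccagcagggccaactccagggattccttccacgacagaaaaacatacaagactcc

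Immediate early genes, which serum and stress switch on within minutes, were lower in 4N cells. Of 42 listed, 39 were tested on RPKM; 31 were lower in all 3 pairs (all genes, 21%), 7 lay wholly below the 2N libraries (all genes, 5.56%), and the median log2 difference was -0.17. The median turned to 0.07 without 2N library 1 alone and was -0.01 without 4N library 3 alone. On RPM, 8 of 41 fell (all genes, 0.517%) and none rose (all genes, 0.2%): KLF2, ZFP36, JUNB, EGR3, EGR1, FOS, JUN and IER2.

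ZFP36, which binds and destabilises AU-rich messenger RNAs, stood at 71.0, 64.6 and 52.2 RPM in the 4N libraries, against 98.8, 91.1 and 85.9 RPM in the 2N libraries. The fractions did not overlap, and the log2 difference was -0.56 ± 0.07 (SE), adjusted p = 0.0158. KLF2, a zinc finger factor, stood at 23.6, 17.1 and 17.1 RPM in the 4N libraries, against 36.4, 25.3 and 27.0 RPM in the 2N libraries and fell by a log2 difference of -0.60 ± 0.09 (SE), adjusted p = 0.0242. FOS, a subunit of AP-1, stood at 116, 379 and 298 RPM in the 4N libraries, against 148, 465 and 421 RPM in the 2N libraries. Library 1 of either fraction was far below the others, so the fractions overlapped, and each 4N library was below its partner, by -0.38 ± 0.07 (SE), adjusted p = 0.0382. The AP-1 subunits JUNB and JUN fell by log2 differences of -0.50 and -0.34, the zinc finger factors EGR1 and EGR3 by -0.47 and -0.48, and IER2 by -0.34.

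Genes of the extracellular matrix were lower in 4N cells by small amounts. Of 45 listed, 30 were tested on RPKM, with 22 lower in all 3 pairs (all genes, 21%), 1 higher and a median log2 difference of -0.14. The median was 0.05 without 2N library 1 alone and -0.31 without 4N library 1 alone. On RPM, 5 of 37 fell (all genes, 0.517%) and none rose (all genes, 0.2%). DCN, the proteoglycan decorin, stood at 4.40, 0.751 and 0.674 RPM in the 4N libraries, against 9.17, 1.75 and 1.51 RPM in the 2N libraries, with a log2 difference of -0.87 ± 0.13 (SE), adjusted p = 0.0242.

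Periostin (POSTN) fell by a log2 difference of -0.46, EFEMP1 by -0.41 and COL8A1 by -0.25; POSTN and DCN were near 1 RPM in libraries 2 and 3. CCDC80, a secreted matrix protein on no list, stood at 595, 242 and 222 RPM in the 4N libraries, against 760.2, 299 and 288 RPM in the 2N libraries and fell by -0.35 ± 0.04 (SE), adjusted p = 0.0127. It was 1 of the 3 genes called by the paired test on RPKM, where its adjusted p was 0.0498. The list's median on RPKM was 0.02 in untreated cells and -0.24 under ZM447439. Fibroblast markers, which include DCN, summed to 531 to 634 RPKM in the 4N and 473 to 636 RPKM in the 2N libraries. VIM held most of that sum, at means of 526 RPKM in 4N and 479.5 RPKM in 2N cells. The median log2 difference of the 8 markers tested on RPKM was -0.05, with 2 of them positive. The part of these markers in the matrix differences was not tested.

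Cytoskeletal targets of SRF and its coactivator MRTF, which is released when free actin is scarce, had small differences that were more often negative. Of 51 listed, 44 were tested on RPKM, 24 were lower (all genes, 21%) and 3 higher (all genes, 16.4%) in all pairs, and the median log2 difference was -0.07. ACTB averaged 129 ± 5.29 RPKM in 4N and 133 ± 0.853 RPKM in 2N cells (SD, n = 3 each). ACTA2 stood at 178, 53.5 and 54.4 RPM in the 4N libraries, against 218, 76.8 and 68.4 RPM in the 2N libraries and was the member that fell, by -0.38 ± 0.07 (SE), adjusted p = 0.0382. It was 1 of 50 members tested on RPM (fallen among all genes, 0.517%), and none rose (all genes, 0.2%). STAMBPL1 and ACTA2-AS1, which overlap ACTA2 in the genome, fell by log2 differences of -0.38 and -0.49, and their reads cannot be told apart from those of ACTA2. Tubulin genes had a median of -0.04, with 0.48 in untreated cells.

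Genes of cholesterol synthesis were lower in pairs 2 and 3 and near the background in pair 1. Their median log2 difference was -0.28 over 32 tested genes, and -0.06, -0.40 and -0.38 in the 3 pairs; 24 were lower in all pairs (all genes, 21%), and none passed the unpaired or the paired test. Without the 6 libraries that stood apart, 27 of the 32 were called lower in 4N cells (all genes, 3.57%). With only both cytochalasin D libraries numbered 1 left out, the median was the same, -0.40, and 0 of the 32 passed. The median was -0.05 without 4N library 1 alone and -0.60 without 2N library 1 alone. HMGCS1, the enzyme before the rate-limiting reductase, stood at 1.70, 4.95 and 4.37 RPKM in the 4N libraries, against 1.82, 8.52 and 7.50 RPKM in the 2N libraries. Library 1 of either fraction was low.

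**Figure D5:**
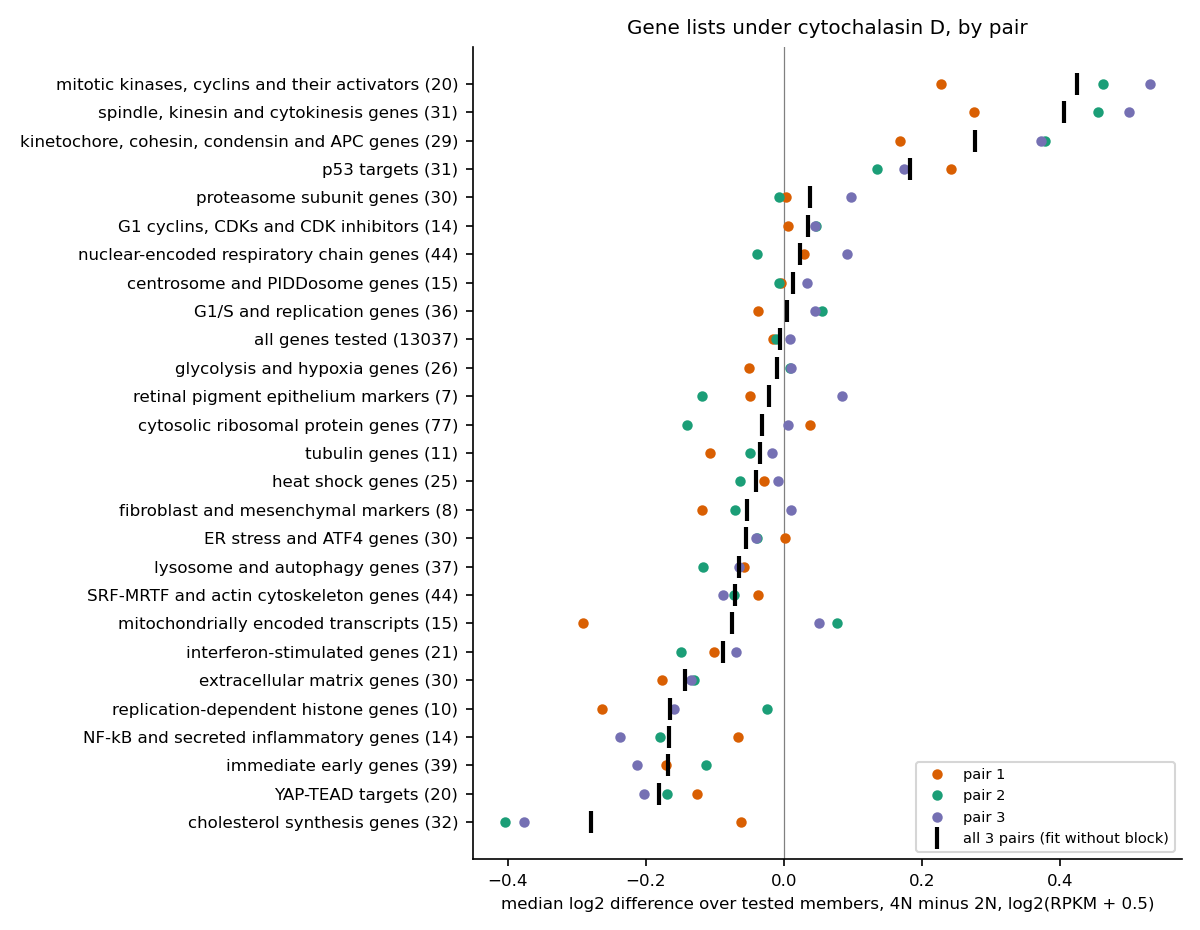
Median log2 difference (x axis, 4N minus 2N, log2(RPKM + 0.5)) over the tested members of each list, whose number stands in brackets; coloured points are pairs 1, 2 and 3 and black ticks the unpaired fit. The 3 mitotic lists lie highest, at 0.42, 0.40 and 0.28, and cholesterol synthesis lowest, at -0.28.

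Most of the other lists lay near the background of all genes. Medians ran between -0.09 and 0.04 for interferon-stimulated genes, the stress response of the endoplasmic reticulum, heat shock, lysosome, glycolysis, ribosomal proteins, respiratory chain, proteasome, G1 cyclins and inhibitors, and centrosome genes. Within them CCP110, which caps centrioles, rose by 0.39, and the lipase inhibitor ANGPTL4 fell by a log2 difference of -0.44. The inflammatory list was lower, with a median of -0.17 and no member past the threshold. Of its 14 tested genes, 9 were lower (all genes, 21%) and 1 higher (all genes, 16.4%) in all pairs. CXCL8, the chemokine IL-8, stood at 3.11, 0.938 and 1.06 RPKM in the 4N libraries, against 3.31, 2.02 and 1.91 RPKM in the 2N libraries. Histone genes had a median of -0.17 over 10 tested (0.01 without 2N library 1 alone), with 5 lower and 1 higher in all pairs. H4C8 fell by a log2 difference of -0.62. CCND1, cyclin D1, averaged 22.0 ± 2.25 RPKM in 4N and 27.2 ± 1.56 RPKM in 2N cells.

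Several genes on no list were called too, and the ones given here were chosen after their values were seen. IQGAP3, a scaffold protein linked to proliferation, stood at 26.7, 24.4 and 23.6 RPM in the 4N libraries, against 16.3, 8.62 and 8.51 RPM in the 2N libraries and rose by 1.19, and the kinesin KIF18B by 1.06. GGH, which trims folate chains, stood at 51.0, 51.0 and 56.4 RPM in the 4N libraries, against 38.9, 36.5 and 35.9 RPM in the 2N libraries with no overlap and rose by 0.50. The collagen COL11A1, the sulfatase SULF1 and the hyaluronan-degrading CEMIP fell by log2 differences of -0.84, -0.84 and -0.82. UNC13A, a synaptic vesicle priming factor, stood at 6.85, 4.45 and 3.51 RPM in the 4N libraries, against 11.5, 9.38 and 9.83 RPM in the 2N libraries and had the lowest log2 difference of the 129, -1.03 ± 0.15 (SE), adjusted p = 0.0243.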

How the data were processed

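Polyadenylated RNA was sequenced from unstranded TruSeq libraries, per the labels' protocols. The authors deposited 1 table of RPKM values; the submitters' processing notes name CASAVA 1.8.2, TopHat2, edgeR and the build hg19, with no role given. With gene spans of GENCODE release 29, 88.8% to 89.4% of low values (under 200 reads) came out as whole reads within 0.05 reads, against 12.1% to 13.1% with exonic lengths. Gene symbols matched 52338 of 57773 IDs, or 90.6%.

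Tests used limma 3.58.1 in R 4.3.3 on log2(RPKM + 0.5), with 1 mean for each of 6 groups of 3 libraries, a mean-variance trend and a mean RPKM of at least 0.5; all p-values are two-sided and adjusted over all genes tested. RPM was RPKM multiplied by span, tested on log2(RPM + 0.5) at a mean RPM of at least 1. The paired fits add treatment and replicate number together as a block. The labels do not say whether libraries of equal number came from 1 culture. Same-number libraries deviated together in every treatment, with correlations of 0.19 to 0.63, so the numbers were taken to pair them, although 4N library 2 went slightly better with 2N library 3 (0.39) than with its own (0.33), and 3 of the 4N libraries of the other treatments also went better with another number. On simulated RPKM data of 13037 genes, the unpaired fit recovered 92.5% and the paired fit 86% of 200 genes changed by a log2 of 1 when libraries were independent, against 95% and 98.5% when same-number libraries shared an effect. The shared effect simulated was stronger than the correlations measured, and smaller changes were not simulated. The paired test on RPM was not simulated either, so these rates do not carry over to its calls.

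Genes named were those past the threshold on RPKM with or without the block, the 10 highest and 10 lowest without overlap, the 3 of each list with the largest same-sign difference, and a set of cell cycle, p53, YAP, immediate early and sterol genes; genes past the threshold on RPM were added afterwards. Members and lists were chosen with earlier results of these data known. Promoters are RefSeq's, 300 bases each. Small RNA genes named by the rule rest on few reads and are left out. A few genes are not reported here.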

Additional observations from a re-analysis of the deposited data

Results flagged for a closer look

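The difference between 4N and 2N cells under cytochalasin D was set against that in untreated cells with an interaction test, and 1023 genes passed. Among the genes named here, the interaction on log2(RPKM + 0.5) was -1.81 for UBE2C, -1.47 for TOP2A, -1.60 for CDK1, -1.41 for AURKA, -1.57 for HJURP, -1.19 for AURKB, -1.19 for TROAP, a spindle protein, -1.12 for KIF18B, -1.03 for IQGAP3, -0.91 for NUSAP1, -0.81 for NCAPH and -0.71 for CDCA5. In the paired limma test on RPM, the interaction was -0.75 for KIF18B (adjusted p = 0.0797), -0.56 for IQGAP3 (adjusted p = 0.231), -0.46 for NUSAP1 (adjusted p = 0.253) and -0.37 for NCAPH (adjusted p = 0.263), and TROAP had an adjusted p of 0.204, so these 5 did not pass there, while the other genes of this list did. CDKN2C, the p18 inhibitor of CDK4 and CDK6, had -0.82. In the opposite direction, CCNE2 had 1.34, FAM111B 1.08, CDC6 0.76 and E2F1 0.71. CCNE2 and E2F1 were lower in 4N than in 2N untreated cells and did not pass between the fractions under cytochalasin D. Why the 2 treatments differ was not tested. No group holds more than 3 libraries, so single libraries were not tested as outliers.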

How the results depend on the processing

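The comparison of 4N with 2N cells, with no gene past the threshold, gave 3 genes with the replicate block, 129 on RPM with the replicate block, 13 with no filter (log2 differences of -0.21 to 0.11), 1 (SNORD18B) on the 6 own libraries and 941 without both libraries that stood apart in each treatment (6 in all, numbered 1 under either drug and 3 in untreated cells). The unpaired fit on RPM gave 0. Leaving out single libraries gave 0 to 5, the 5 without 2N library 1, TOP2A among them. The RPKM fit with the replicate block gave 0 on the 6 own libraries and 0 without both libraries numbered 1, 2 or 3. Chosen after the data were seen, the RPM fit with block gave 114, 1 and 1 genes without both libraries numbered 1, 2 and 3, 117 when scaled to 1 median ratio, 91 after quantile normalization and 936 on the 6 own libraries. The interaction with untreated cells, 1023 genes, gave 1585 with no filter, 1924 with the replicate block, 1678 on RPM, 3968 on RPM with block, 554 and 609 without both libraries numbered 2 and 3, 2768 without the 6 that stood apart and 717 to 1131 without single libraries. The interaction with ZM447439, 0 genes, gave 4 with no filter, 11 on RPM with block, 1621 without the 6 that stood apart and 0 to 267 without single libraries, the 267 without ZM447439 2N library 1. Of 2159 values of 66 genes named here, 13 had the other sign and did not pass. When libraries were left out 1 or 2 at a time, the log2 difference on RPKM ran for EFEMP1 from -0.747 to 0.0139, CCDC80 from -0.743 to 0.112, ACTA2 from -0.724 to 0.150, EGR3 from -1.16 to 0.402, COL8A1 from -0.425 to 0.0116, ANGPTL4 from -0.884 to 0.346, STAMBPL1 from -0.607 to 0.109, ACTA2-AS1 from -0.992 to 0.0771 and for FOS from -0.903 to 0.127. The highest values came without 2N library 1, or without 4N library 1 for FOS. ACTB came to 0.0388 under quantile normalization and to 0.0691 on RPM with block. The cause of these changes was not tested. Medians of the 3 mitotic lists together stayed between 0.27 and 0.79 and those of YAP-TEAD targets between -0.27 and -0.06, while matrix genes ran from -0.31 to 0.05 and immediate early genes from -0.39 to 0.07.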
